A study of Pleurodeles waltl with 10 samples.

Results

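Voltage-gated and related cation channels are the membrane proteins through which neurons set their resting potential, fire and release transmitter. Their genes were examined in the transcript-to-gene table that belongs to a single-cell RNA sequencing study of the Iberian ribbed newt, Pleurodeles waltl. The members were chosen by name alone, as all gene names that have the symbol form of a sodium (SCN), calcium (CACN), potassium (KCN) or hyperpolarization-activated (HCN) channel gene, ignoring case. This gave 132 of 16771 gene names. They carried 2046 distinct transcripts, which is 1.05% of the 194406 rows. The name form also takes in subunits that form no pore, such as the KCNIP proteins, and leaves out the epithelial sodium channel genes (SCNN).

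The study behind the table sequenced forebrain cells of newt larvae collected at stage 55. Larvae of every group were injected with the virus PHP-GFP, at stage 37 (2 gene expression libraries), stage 41 (1 library) or stage 51 (2 libraries), and 5 further libraries held the multiplexing oligos that tag pools of cells. Strain, sex and the promoter of the virus were not given in the sources used here, and no uninjected group is among the 10 libraries. Expression was not analysed here for any library, so no value below is a level of expression, and none has a replicate. What was measured is how many transcripts the table lists under each channel name and from which source they came. Names that start with pt_ also contain HQ_transcript, a form that long-read software writes. Names that start with TRINITY_ carry the prefix of a short-read assembler.

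A channel of this superfamily is built around a pore subunit, and in the sodium and calcium families a single long chain holds all the repeats that a potassium channel assembles from separate chains. Auxiliary subunits set how many channels reach the membrane and how fast they open and close. Sodium channels carry the upstroke of the action potential, calcium channels couple it to release and gene expression, potassium channels end it and hold the cell at rest, and HCN channels carry a depolarizing current after hyperpolarization.

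The median channel name held more transcripts than the median gene name. The median was 9 transcripts per channel name, with a range from 1 to 206, against a median of 6 over all gene names. More transcripts than that median were listed for 76 channel names (57.6%), against 45.6% of all names. When the yardstick was the median of names with both sources, which is 9, the share was 63 of all 132 channel names (47.7%). Of the names with both sources themselves, 49.1% lay above it. These shares are not like for like, because the 132 include 27 names with TRINITY_ transcripts alone and 2 with pt_ transcripts alone. The 27 had at most 5 transcripts each, so none of them lay above 9. By pt_ transcripts alone, the median over all gene names that have any was 7. Above it lay 62 of the 105 channel names with a pt_ transcript (59.0%), against 48.1% of all such names. At least 20 transcripts were listed for 33 channel names (25.0%), against 17.4% of all names. A single transcript was listed for 16 channel names (12.1%), against 17.0% of all names.

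A few names held much of the total. The 10 channel names with the most transcripts carried 697 of the 2046 (34.1%). SCN2A led with 206 and ranked 10 among all gene names of the table. It was followed by the calcium channel subunits CACNA2D1 (76 transcripts) and CACNA2D3 (73 transcripts). The potassium channel names KCNMA1 (67 transcripts) and KCND3 (62 transcripts) came next, then CACNA1D with 54. They were followed by KCNC2 (41 transcripts) and by KCNAB2 and KCNF1 (40 transcripts each).

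**Figure D1:**
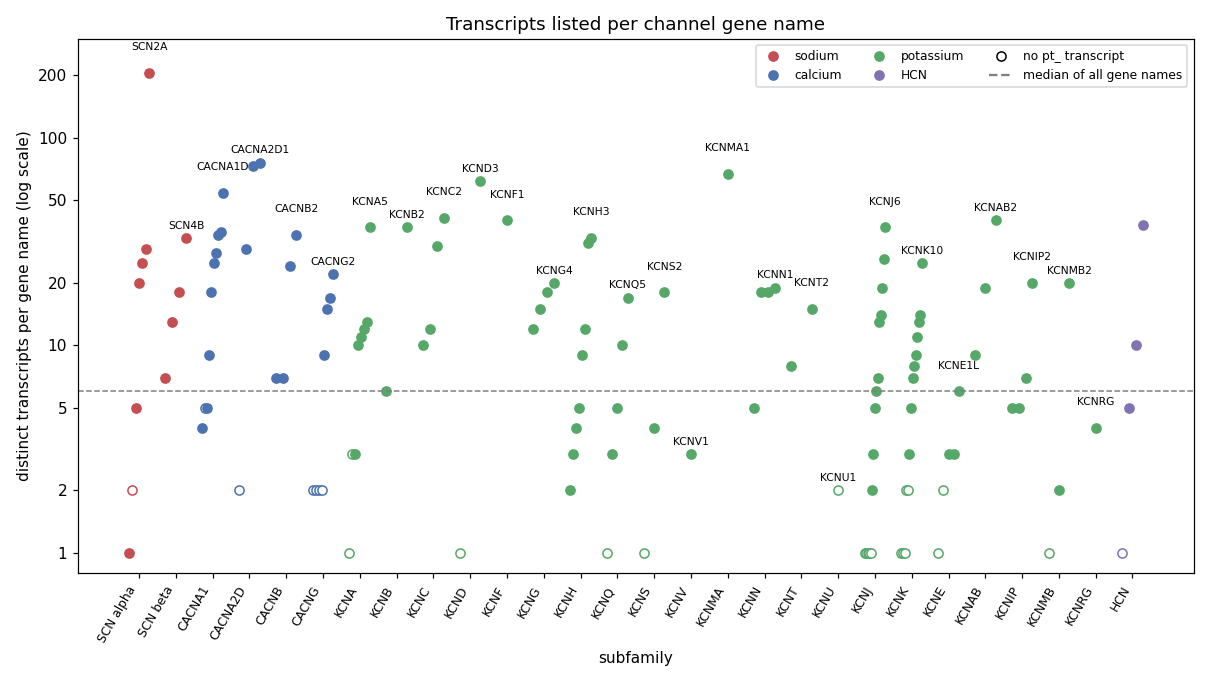
Distinct transcripts per gene name (log scale) for the 132 channel names, arranged by subfamily; each point is 1 gene name, open points have no pt_ transcript, the name with the most transcripts is written beside its point for most subfamilies and the dashed line is the median of all gene names (6). SCN2A stands at 206, and the open points lie between 1 and 5.

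The sodium channel family had 11 names and 359 transcripts, with a median of 18 per name. SCN2A alone gave 57.4% of them. Without it the family held 153 transcripts over 10 names and its median was 15.5, so the family total rests on this name and the median much less so. Among the pore subunits, SCN8A, whose mammalian channel is concentrated at the axon initial segment, had 29 transcripts. SCN3A, prominent in the embryonic mammalian brain, had 20. SCN1A, a channel of inhibitory neurons in mammals, had 5 transcripts. SCN4A, the channel of mammalian skeletal muscle, had 2, and SCN9A, known from sensory neurons, had 1. The pore subunit names thus ran from 1 to 206, the widest range of any subfamily. Names SCN7A, SCN10A and SCN11A gave no row in the table used here.

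The sodium channel beta subunits, small membrane proteins that also act in cell adhesion, were more even. SCN4B had 33 transcripts, SCN2B 18 and SCN3B 7, all above the median of all gene names.

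The calcium channel family had 26 names and 540 transcripts, with a median of 16 per name. More than the catalogue median was listed for 18 of the 26 (69.2%), against 45.6% of all gene names. At least 20 transcripts were listed for 11 (42.3%), against 17.4% of all gene names. Among the pore subunits, which had a median of 21.5, the L-type names were split. CACNA1D had 54 transcripts and CACNA1C 25, both of them L-type channels of mammalian neurons and heart. CACNA1F, the L-type channel of mammalian photoreceptors, and CACNA1S, that of skeletal muscle, had 5 each. Of the presynaptic channels, CACNA1A (P/Q-type) had 35 transcripts and CACNA1B (N-type) had 4, the lowest of the pore subunits. CACNA1E (R-type) had 18. The low-voltage-activated T-type channels had 34 for CACNA1G, 28 for CACNA1H and 9 for CACNA1I.

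The auxiliary calcium channel subunits differed by class. The CACNA2D proteins, which bring channels to the membrane and include the binding sites of gabapentin, had 76 transcripts for CACNA2D1, 73 for CACNA2D3 and 29 for CACNA2D2, whereas CACNA2D4 had 2. The intracellular beta subunits had 34 transcripts for CACNB2, 24 for CACNB3, and 7 each for CACNB1 and CACNB4. The CACNG genes include the transmembrane regulators of AMPA receptors. CACNG2, known as stargazin, had 22 transcripts, CACNG5 had 17, CACNG8 had 15 and CACNG3 had 9. The other CACNG names, CACNG1, CACNG4, CACNG6 and CACNG7, had 2 each. CACNG names thus fell into a group of 9 or more and a group at 2, with none between.

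The potassium channel family was the largest, with 91 names and 1093 transcripts, and had the lowest median of the 4 families, at 7. At least 20 transcripts were listed for 16 of the 91 (17.6%), which is close to the 17.4% of all gene names. The families were not tested against each other, because gene names are not replicates and members were chosen with earlier results of these data known.

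Within this family the roles differed more than the family median shows. Ion-activated channels had a median of 16.5 over 8 names, voltage-gated pore subunits 10.5 over 38 names, and tandem pore domain channels (KCNK) 6 over 14 names. Inward rectifiers (KCNJ) had a median of 5 over 15 names, as did auxiliary subunits and regulators over 16 names.

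Among the voltage-gated pore subunits, the A-type channel name KCND3 had 62 transcripts. Its paralog KCND1 had 1, and KCND2 gave no row in the table used here. The KCNC channels, which allow fast repetitive firing in mammals, had 41 transcripts for KCNC2, 30 for KCNC1 and 12 for KCNC4. The delayed rectifier KCNB2 had 37. Of the Shaker-type names, KCNA5 had 37 transcripts, and KCNA1, KCNA2, KCNA3 and KCNA6 ranged from 10 to 13. KCNA4 and KCNA10 had 3 each and KCNA7 had 1.

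The silent subunits, which form no channel alone and change KCNB channels when they join them, differed widely. KCNF1 had 40 transcripts and the 4 KCNG names had 12 to 20. KCNS2 had 18, KCNS3 had 4, KCNV1 had 3 and KCNS1 had 1, and KCNV2 gave no row. In the KCNH group, KCNH3 had 33 transcripts and KCNH7 had 31, whereas KCNH2, the channel known as hERG, had 3. The other 5 KCNH names had 2 to 12. The KCNQ names, some of whose channels carry the M-current of neurons, had 17 for KCNQ5, 10 for KCNQ3 and 1 for KCNQ1.

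Of the channels opened by intracellular ions, KCNMA1, the large-conductance calcium-activated channel, had 67 transcripts. KCNN1, KCNN2 and KCNN3, which underlie part of the afterhyperpolarization, lay together at 18 or 19, and KCNN4 had 5. The sodium-activated channels had 15 for KCNT2 and 8 for KCNT1. KCNU1, a sperm channel in mammals, had 2.

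Among the inward rectifiers, KCNJ6 had 37 transcripts, KCNJ9 had 26 and KCNJ3 had 14. All 3 encode G protein-gated channel subunits, and the fourth such name, KCNJ5, had 3. KCNJ10, the main inward rectifier of glia in mammals, had 19. The names KCNJ1, KCNJ13, KCNJ14, KCNJ15 and KCNJ16 had 1 each, and the other 5 KCNJ names had 2 to 13. The tandem pore domain names, which provide background current, were led by KCNK10 with 25 transcripts, KCNK3 with 14 and KCNK2 with 13. KCNK1, KCNK5 and KCNK17 had 1 each, and the other 8 KCNK names had 2 to 11.

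The auxiliary potassium channel names were led by the cytoplasmic beta subunit KCNAB2, with 40 transcripts. KCNAB1 had 19 and KCNAB3 had 9. KCNIP2, which binds KCND channels, had 20, and the other 3 KCNIP names had 5 to 7. KCNMB2, a partner of KCNMA1, had 20, whereas KCNMB3 had 2 and KCNMB4 had 1. All 5 KCNE names lay at or under the catalogue median, with 1 to 6 transcripts, and the regulator KCNRG had 4.

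The HCN family had 4 names. HCN4, the pacemaker form of the heart in mammals, had 10 transcripts, HCN3 had 5 and HCN2 had 1.

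Most channel names drew on both sources. Transcripts of both sources were listed for 103 channel names (78.0%), against 70.7% of all gene names. TRINITY_ transcripts alone supported 27 channel names (20.5%), against 28.1% of all names, and pt_ transcripts alone supported 2 (1.52%), against 1.24%. By family, both sources were present for 72.7% of sodium, 76.9% of calcium, 79.1% of potassium and 75.0% of HCN names. Both names with pt_ transcripts alone were sodium channels, SCN3A with 20 transcripts and SCN9A with 1. No calcium, potassium or HCN name lacked a TRINITY_ transcript.

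**Figure D2:**
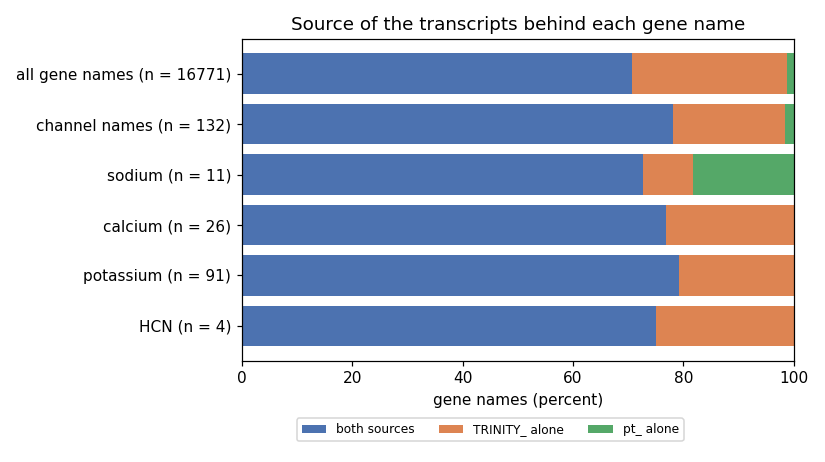
Percent of gene names with transcripts of both sources, of TRINITY_ alone or of pt_ alone, for all gene names, all channel names and each family (number of names in brackets). Both sources were present for 70.7% of all names and 78.0% of channel names, and the pt_ alone segment is wide only for sodium, where it stands for 2 of 11 names.

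Most channel transcripts were pt_ transcripts. They made up 1784 of the 2046 channel transcripts (87.2%), against 82.7% in the whole table. The share was 93.0% for sodium, 86.2% for potassium, 85.6% for calcium and 85.2% for HCN. A channel name had a median of 7 pt_ transcripts and 1 TRINITY_ transcript, against 3 and 1 over all gene names. For the channel names as a whole, the medians thus differed for pt_ transcripts only. The calcium pore subunits had a median of 4.5 TRINITY_ transcripts. Their pt_ share was 78.3%, against 90.4% for the auxiliary calcium channel subunits. Of the 103 names with both sources, 52 had exactly 1 TRINITY_ transcript. Spearman's rho between the numbers of the 2 sources was 0.12 across the 132 names and 0.13 over all 16771 names. Both numbers can share gene length and expression in the tissues sequenced, and genes are not independent replicates, so nothing is read from these values.

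**Figure D3:**
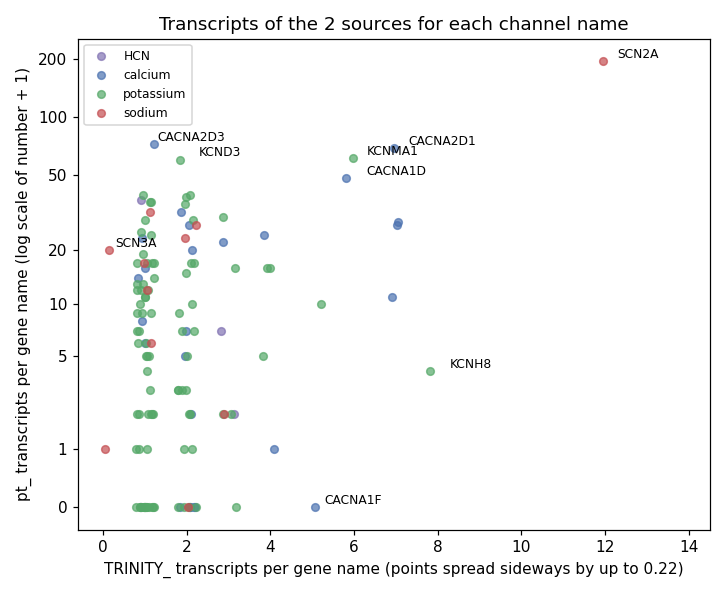
Number of pt_ transcripts (log scale of the number plus 1) against number of TRINITY_ transcripts for the 132 channel names, coloured by family, with points spread sideways where they coincide. SCN2A lies at 194 pt_ and 12 TRINITY_ transcripts, and KCNH8 and CACNA1F have more TRINITY_ than pt_ transcripts.

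The highest numbers of TRINITY_ transcripts were 12 for SCN2A and 8 for KCNH8. SCN2A also had 194 pt_ transcripts, whereas KCNH8 had 4. The 12 of SCN2A lay in 5 clusters, a cluster being the TRINITY_ names that differ only in their isoform number, and the 8 of KCNH8 lay in 6. CACNA1A, CACNA1E, CACNA1G and CACNA2D1 had 7 each. CACNA2D3 had 72 pt_ transcripts and 1 TRINITY_ transcript, whereas CACNA2D1, with a near-equal total, had 69 and 7.

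The 27 channel names without a pt_ transcript had a total of 43 transcripts and a range from 1 to 5. Low numbers follow largely from the way these names were picked, since only TRINITY_ transcripts were left to count. The median number of TRINITY_ transcripts was 1 over the channel names and 1 over all gene names. A single transcript was listed for 15 of the 27 and 2 transcripts for 10. Several are known in mammals mainly from organs other than the forebrain. SCN4A, CACNG1 and CACNG6 are known from skeletal muscle, CACNA1F and CACNA2D4 from the retina, KCNJ1 from the kidney and KCNU1 from sperm. KCNQ1 and KCNE1 form a channel of the heart and inner ear. Others are known from the mammalian brain, among them HCN2, KCNK1, KCNK4, CACNG7 and KCNMB4. By subfamily, names without a pt_ transcript made up 5 of 14 KCNK, 5 of 15 KCNJ, 4 of 8 CACNG and 0 of 8 KCNH names. Over all gene names, TRINITY_ transcripts alone supported 28.1%. The shares of KCNK (35.7%) and KCNJ (33.3%) lay near that value, and each subfamily has few names. The RNA that each source was built from is not given in the sources used here.

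Channel genes that lie next to each other in the genome had unequal numbers of transcripts in several cases. In the RefSeq gene order of assembly aPleWal1.hap1, which was used for names and neighbours only, 19 channel symbols formed 8 runs of adjacent protein-coding genes. CACNG5, CACNG4 and CACNG1 were adjacent, and of these CACNG5 had 17 transcripts and the other members 2 each. CACNG6, CACNG8 and CACNG7 were adjacent, and of these CACNG8 had 15 and the other members 2 each. In both runs the pt_ transcripts, 16 and 14, were listed under a single name. KCNJ6 had 37 transcripts beside 1 for its neighbour KCNJ15, and KCNJ2 had 6 beside 1 for KCNJ16. By contrast, the adjacent names KCNJ10 and KCNJ9 had 19 and 26. The adjacent names KCNK5, KCNK17 and KCNK16 had 1, 1 and 2, and none had a pt_ transcript.

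**Figure D4:**
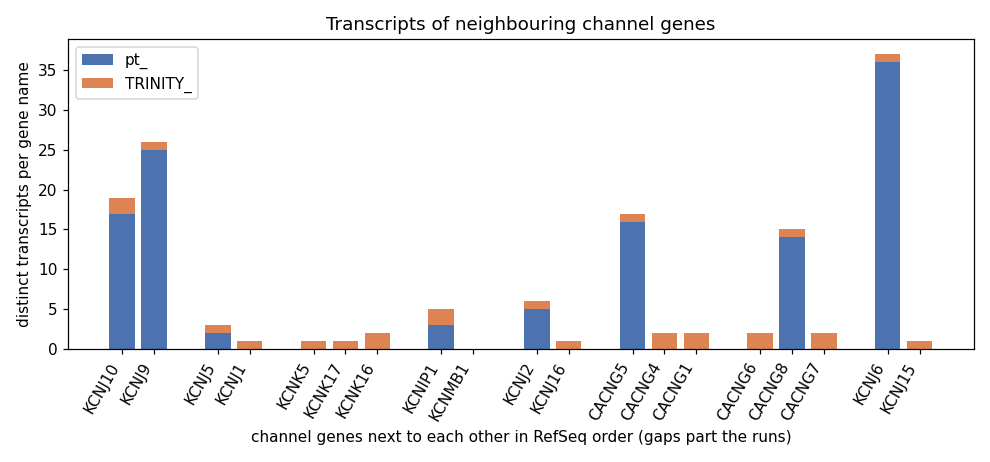
Distinct transcripts per gene name, split into pt_ and TRINITY_, for the 19 channel symbols that lie next to another channel symbol in RefSeq order; gaps part the 8 runs. CACNG5, CACNG8 and KCNJ6 stand high beside neighbours at 1 or 2, and KCNMB1 is drawn at 0 because it gave no row.

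Paralogs can be confused when transcripts are named by similarity, so shared entries were counted. No channel transcript was listed under more than 1 gene name, against 0.537% of all gene names that shared a transcript, and no channel name was spelled in more than 1 way, against 2.02% of all names. TRINITY_ clusters were shared in some cases. Only TRINITY_ names have clusters, so this count cannot show whether pt_ transcripts, 87.2% of the channel transcripts, were given to the wrong paralog. A cluster shared with another gene name was found for 16 channel names (12.1%), against 6.71% of all names. Of the 203 clusters with a channel name, 10 (4.93%) carried more than 1 gene name, against 2.23% of all 28058 clusters.

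In 7 of these 10 clusters both names were channels of the same subfamily. They paired SCN1A with SCN2A, SCN2A with SCN8A, CACNA1C with CACNA1F, CACNA1H with CACNA1I, KCNH3 with KCNH4, KCNAB1 with KCNAB3 and KCNIP2 with KCNIP3. The other 3 paired CACNG2 with FAH, KCNK6 with ERF and KCNQ3 with NAP1L1, which are not channels. Over all 626 clusters with several names, 41.7% had names that agreed in their first 3 letters, against 70.0% of the 10. The channel names were chosen by their first letters, which favours such agreement, and 10 clusters are few. Nothing is read from this difference. The numbers of SCN1A, CACNA1F, CACNA1I, KCNH4, KCNAB3 and KCNIP3 are uncertain in part, since they were 9 or less and included transcripts from a shared cluster. Their partners in these clusters, among them SCN2A and SCN8A, had higher numbers but are not free of this doubt. Both TRINITY_ transcripts of SCN8A lay in a shared cluster. Whether pt_ transcripts were assigned to the right paralog was not tested for any name.

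The names were also set beside annotated symbols. Of 117 channel symbols in the RefSeq table for this species, 113 (96.6%) were found, against 90.7% of all 13717 symbols. The 4 that gave no row were KCNE5, KCNK12, KCNMB1 and KCNV2. The table does list KCNE1L, an older human symbol of KCNE5, with 6 transcripts. In the other direction, 113 of the 132 channel names (85.6%) matched a RefSeq symbol, against 74.2% of all gene names. The 19 without a match included 5 of 7 sodium channel pore subunits, among them SCN2A and SCN3A, and 5 of 8 KCNA names. They held 410 transcripts, of which 206 were those of SCN2A. Their median of 10 transcripts was close to the 9 of the names that matched. Of 140 human symbols of these subfamilies, listed from general knowledge, 131 had rows.

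Proteins that work with these channels were counted as well. A list of 27 partners had rows for all 27, with a median of 17 transcripts beside 9 for the channel names. More than the catalogue median was listed for 20 of them (74.1%), against 45.6% of all gene names. The list was chosen with earlier results of these data known, so these values describe the listed names only. ANK2 and ANK3, which anchor sodium channels to the membrane skeleton, had 153 and 93. RIMS1, which tethers calcium channels at release sites, had 141. DPP6, a partner of the KCND channels, had 133, and its paralog DPP10 had 27. Among the fibroblast growth factor homologs that bind sodium channels, FGF14 had 43 and FGF13 had 41, whereas FGF12 had 9 and FGF11 had 5. The lowest values were 1 each for LRRC26, LRRC52 and LRRC55, proteins that modify KCNMA1 channels.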

How the data were processed

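The deposited transcript table holds only names, with no measured unit per library: a transcript name and a gene name per row, read as white-space fields. How it was assembled and named is not given in the sources used here. The submitters' processing notes name Salmon 1.6.0 and alevin for the libraries. Of its columns, 0 hold values of a sample, so the depth behind the values is unknown. The deposited table of multiplexing oligos was not used.

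Gene names were folded to upper case, and distinct transcript names were counted per gene name and source. No test was made. Gene names were matched, ignoring case, with RefSeq symbols of assembly aPleWal1.hap1 after LOC symbols had been left out. Neighbours were consecutive protein-coding genes in that table. The members and lists were chosen with earlier results of these data known, and the human symbol list after the table was seen. Names printed were the leading 10, the leading name of each subfamily, names with 1 transcript or 1 source, names in shared clusters and names without a match. Some members that this rule covers are not reported here. Other members were named to describe their subfamily, and listed partners after their values were seen. The counting was checked on a simulated table. Python 3.11.15, numpy 2.4.6, pandas 2.3.3, scipy 1.17.1 and matplotlib 3.10.9 were used.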

Additional observations from a re-analysis of the deposited data

How the results depend on the processing

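Across 25 alternatives for 8 results, 4 values moved by more than the limits used. These were a ratio of 1.5 for counts and medians and the 95% Wilson interval for shares. That interval treats gene names or transcripts as independent draws, which they are not, so it served as a limit only. The median number of transcripts per channel name was 1 with TRINITY_ transcripts alone, because fewer transcripts are counted. By that count the median over all gene names was also 1. The share of channel names above the yardstick was 47.7% when it was the median of names with both sources, which is higher. That share still counted the channel names that lack a source. The share of names with both sources was 36.4% when at least 2 transcripts of each were required, which follows from the stricter rule. The pt_ share was 89.5% with TRINITY_ transcripts collapsed to clusters. The alternatives limited to names with a RefSeq symbol and the one without SCN2A were chosen after seeing the data. Matching by synonym was not run, because the RefSeq table gives none. No paired analysis was possible because the table holds no values per library, and no library could be left out for the same reason.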

Other observations

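Cation channels outside the name form were counted from a list. Of 49 such genes, 41 had rows, with a median of 6 transcripts, equal to the median of all gene names. Those with the most were TRPV2 (49 transcripts), NALCN, the sodium leak channel (46 transcripts), ASIC2, an acid-sensing channel (36 transcripts), and the lysosomal channel MCOLN1 (31 transcripts). TRPC4 had 26 and TRPC1 21. Transcripts of TRINITY_ alone supported 12 of the 41 (29.3%), close to the 28.1% of all gene names. Among the 12 were TRPM8 with 7, TRPM2 with 6 and the cyclic nucleotide-gated names CNGA1, CNGA2, CNGA3 and CNGA4 with 1 to 4 each. TRPV6 had 11 TRINITY_ transcripts and 1 pt_ transcript. CATSPER1, CATSPER2, CATSPER3, CATSPER4, CNGB3, TRPV5, TRPM4 and TMEM175 gave no row in the table used here.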
